A study of Mus musculus with 4 samples.

Results

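A set of 10 long noncoding genes, the nuclear RNAs Malat1 and Neat1, the small nucleolar RNA (snoRNA) host genes Gas5, Snhg1, Snhg3, Snhg5, Snhg6, Snhg8 and Snhg12, and the microRNA host gene Mir17hg, were followed in mouse B-lymphoma cells that resist or respond to JQ1. These genes were chosen by name, with earlier results of these data known, and matched by Ensembl identifier to the 16591 genes of the count table. A row was found for 8 of them, and all 8 passed the filter on low counts. No row carried the identifier of Snhg1 or Snhg8, which are not analysed here. The tested cells were a JQ1-resistant Eμ-Myc line (JQ1R) with 2 libraries, and the cells they were set against were a JQ1-sensitive Eμ-Myc line (JQ1S) with 2 libraries. JQ1 displaces BET bromodomain proteins from acetylated chromatin, and Eμ-Myc lymphomas arise in C57BL/6 mice in which an immunoglobulin heavy-chain enhancer drives Myc in B cells. Both lines carry the transgene, were early in passage and were grown in the same medium, and the labels name no drug added before harvest. Because JQ1R and JQ1S are 1 line each, an effect of resistance and an unrelated property of either line cannot be told apart. Nothing in the labels says that the 2 libraries of a line came from separate cultures, so p-values reflect only spread between libraries. In edgeR the spread of each gene is also drawn toward that of the other genes tested.

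A snoRNA host gene is transcribed mainly for what its introns release: snoRNAs, most of which guide chemical modification of ribosomal RNA. Its spliced exons carry no long open reading frame, and for several of these genes, Gas5 first among them, the spliced RNA is translated briefly and destroyed by nonsense-mediated decay. Malat1 stays in the nucleus at speckles, where splicing factors gather, and Neat1 is the scaffold on which paraspeckles form. Mir17hg is cut into the miR-17 to miR-92 cluster of microRNAs, a direct target of MYC that cooperates with it in mouse B-cell lymphoma.

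Total counts were 10928239 and 11809635 in the JQ1R libraries and 13048103 and 10346007 in the JQ1S libraries. All 8 B-lineage markers examined had a row, and their summed level was 2338 and 2276 CPM (counts scaled to library size) in JQ1R and 2142 and 2191 CPM in JQ1S. Of 21 markers of T, myeloid, erythroid and stromal cells 6 matched a row, with a summed level of 2.65 and 2.37 CPM in JQ1R and 1.99 and 1.55 CPM in JQ1S. No marker of stromal cells matched a row, and Cd3d, the T-cell marker with a row, was at 0 in a library of each line. Their part in the results below was not tested.

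The sequences that Mir17hg exists to make are shown first, because the counts reported here are of the host transcript and the mature microRNAs were not measured. On GRCm38, Mir17hg lies on chromosome 14 at 115042879 to 115046727, on the plus strand. RefSeq places 6 hairpins inside it. Of each hairpin the arm for which the microRNA is best known is given, 5′ to 3′ from RefSeq (GRCm38.p6), with the seed (bases 2 to 8) in capitals:
mmu-miR-17-5p: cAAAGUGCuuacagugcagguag
mmu-miR-20a-5p: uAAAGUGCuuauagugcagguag
mmu-miR-18a-5p: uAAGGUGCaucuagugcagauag
mmu-miR-19a-3p: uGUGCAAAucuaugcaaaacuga
mmu-miR-19b-3p: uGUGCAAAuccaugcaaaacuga
mmu-miR-92a-3p: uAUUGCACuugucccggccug
The 6 arms hold 4 seeds. miR-17-5p and miR-20a-5p share AAAGUGC, miR-19a-3p and miR-19b-3p share GUGCAAA, and miR-18a-5p and miR-92a-3p have a seed each. The arms begin between 805 bases (miR-17-5p) and 1597 bases (miR-92a-3p) after the annotated start of the host.

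The start sites of 4 measured snoRNA host genes are shown beside that of Malat1, and those of Gas5, Snhg5 and Snhg12 look alike. Each line gives 45 bases before and 30 bases from the RefSeq start (GRCm38.p6), 5′ to 3′ on the gene's own strand, with the letters TATA in capitals where they fall 40 to 16 bases before the start. Gas5 is at chr1:161035121-161035195 (plus), Snhg5 at chr9:88522868-88522942 (minus), Snhg12 at chr4:132308633-132308707 (plus), Snhg3 at chr4:132353657-132353731 (minus) and Malat1 at chr19:5802643-5802717 (minus):
Gas5: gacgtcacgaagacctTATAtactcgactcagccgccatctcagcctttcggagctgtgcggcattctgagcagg
Snhg5: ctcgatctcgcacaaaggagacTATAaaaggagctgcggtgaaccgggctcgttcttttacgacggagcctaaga
Snhg12: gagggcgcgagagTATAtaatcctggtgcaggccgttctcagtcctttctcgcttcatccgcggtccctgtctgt
Snhg3: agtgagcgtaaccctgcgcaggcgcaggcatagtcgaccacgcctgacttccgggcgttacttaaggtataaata
Malat1: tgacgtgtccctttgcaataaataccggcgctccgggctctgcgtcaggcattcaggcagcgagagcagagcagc
TATA, which reads the same on both strands, stood 29 bases before the start in Gas5, 23 in Snhg5 and 32 in Snhg12. At 40 to 16 bases before the start it was found in 5 of the 6 host windows examined, those of Snhg1 and Snhg8 included. The share among all 32851 RefSeq windows was 5.91%. An unbroken run of at least 6 C or T bases on the transcript's strand, between 10 bases before and 15 after the start, was present in the same 5 host windows and in 24.4% of all windows. The E-box CACGTG, also its own reverse complement, was in none of the 7 member windows of 250 bases before to 50 after the start and in 7.15% of all windows. These features were chosen after the windows had been seen, and a match is a description of letters only. Within the stretches searched, Snhg3 and Malat1 held neither the TATA nor the run. The letters tata printed for Snhg3 lie after its start. Neat1 and Snhg6 had no entry, and the RefSeq window of Mir17hg was not used because no GENCODE transcript starts within 50 bases of it.

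Neat1 was called higher in JQ1R cells by edgeR and not by DESeq2 (adjusted p = 0.223, DESeq2). Malat1 had a log2 change of similar size that did not pass the test, and with all libraries the log2 changes of the 5 snoRNA hosts and Mir17hg ran from -0.15 to 0.13. No test compared the nuclear RNAs with the host genes, and without JQ1S replicate 1 Malat1 (0.14) was below Snhg6 (0.17) and Snhg12 (0.16). With the quasi-likelihood test of edgeR and Benjamini-Hochberg adjustment over 11945 genes, 1 of 8 members rose and 0 fell at an adjusted p below 0.05, where 3.73% of all tested genes passed, 2.20% higher and 1.52% lower in JQ1R. The unadjusted p was below 0.05 for 3 of 8 members, Neat1, Malat1 and Snhg5, and for 16.9% of all tested genes. With 1 library left out, 2 members were called without JQ1R replicate 1 (2.45% of all genes called), 0 without JQ1R replicate 2 (2.21%), 1 without JQ1S replicate 1 (11.3%) and 2 without JQ1S replicate 2 (9.68%). The median absolute log2 change was 0.10 over the 8 members and 0.11 over all tested genes. In cultures measured in bulk, fewer cells that express a gene and less RNA per cell cannot be told apart.

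**Figure D1:**
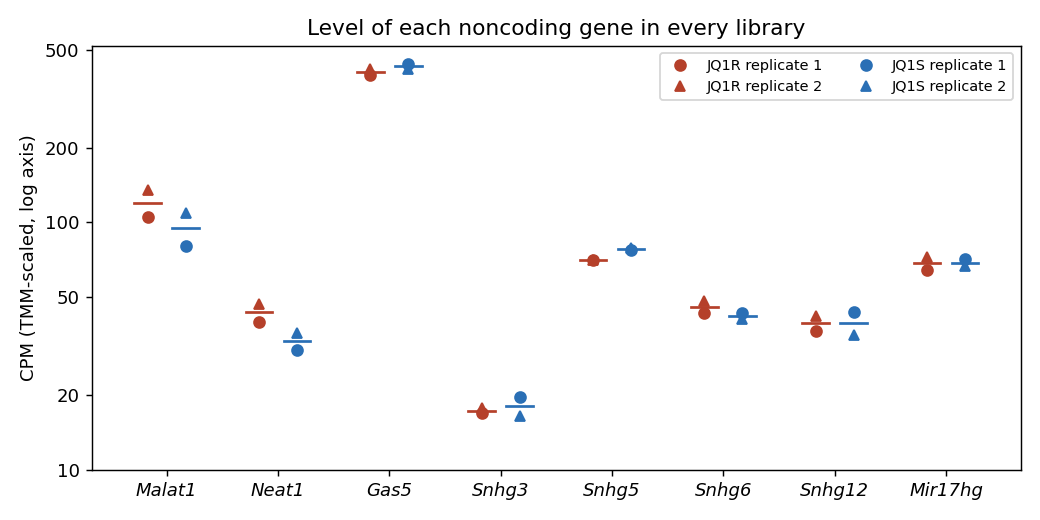
Level of each noncoding gene in every library, in CPM scaled with TMM factors on a log axis. Circles are replicate 1 and triangles replicate 2, red for JQ1R and blue for JQ1S, and the bar is the mean of 2 libraries. Gas5 is the highest member in every library, and the JQ1R and JQ1S libraries of Neat1 do not overlap.

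Neat1, the paraspeckle scaffold, lies on chromosome 19 at 5824708 to 5845478 on the minus strand, in a single exonic block of 20771 bases. It stood at 39.5 and 47.0 CPM in the JQ1R libraries, against 30.6 and 35.6 CPM in the JQ1S libraries. Both JQ1R libraries were higher than both JQ1S libraries. Means were 43.3 ± 5.25 CPM in JQ1R and 33.1 ± 3.51 CPM in JQ1S (SD, n = 2 per line), a 1.32-fold difference with a 95% interval of 1.14 to 1.52. The log2 change was 0.40 ± 0.10 (SE), with an adjusted p of 0.0358 in edgeR. With DESeq2 the SE was 0.14. Exact 95% intervals of the unscaled CPM, which cover counting error only, ran from 35.9 to 43.4 in JQ1R replicate 1 and from 31.8 to 39.2 in JQ1S replicate 2, so these intervals of the closest libraries overlapped. DESeq2 did not call Neat1 (adjusted p = 0.223), and without JQ1R replicate 2 its log2 change was 0.26 with an adjusted p of 0.498 in edgeR. Counts of the whole gene do not separate its short and long isoforms, which share their 5′ part.

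Malat1, the abundant speckle RNA, lies 22035 bases from Neat1 on the same strand of chromosome 19, at 5795690 to 5802672. It stood at 105 and 135 CPM in the JQ1R libraries, against 80.2 and 109 CPM in the JQ1S libraries. The lines overlapped, since JQ1S replicate 2 was above JQ1R replicate 1. Means were 120 ± 21.2 CPM in JQ1R and 94.6 ± 20.4 CPM in JQ1S (SD, n = 2 per line). The log2 change of 0.35 ± 0.12 (SE) did not pass the test (adjusted p = 0.126, edgeR), and with DESeq2 it was 0.34 ± 0.28 (SE). The edgeR change was smaller than the difference between the replicates of JQ1S (0.44 on the log2 scale) and of JQ1R (0.36). Without JQ1S replicate 2 the log2 change of Malat1 was 0.58 and was called, as it was without JQ1R replicate 1 (0.52), whereas without JQ1S replicate 1 it was 0.14 and without JQ1R replicate 2 it was 0.15.

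**Figure D2:**
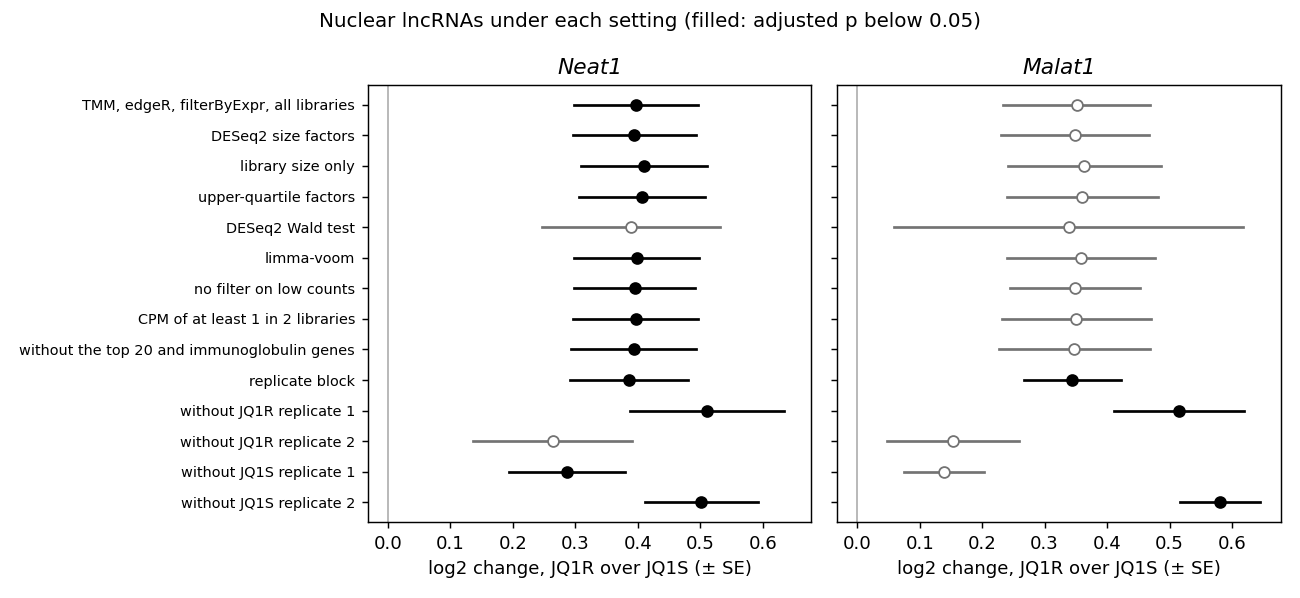
Log2 change of Neat1 (left) and Malat1 (right), JQ1R over JQ1S with its SE, under each setting of the processing. Filled points have an adjusted p below 0.05. Every value is positive, Neat1 is open with the DESeq2 test and without JQ1R replicate 2, and Malat1 is filled only with the replicate block, without JQ1R replicate 1 and without JQ1S replicate 2.

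Malat1 and Neat1 shared their highest library, JQ1R replicate 2, and their lowest, JQ1S replicate 1. In each line the library with more Malat1 also had more Neat1, and the ratio of their counts was 2.65 and 2.87 in JQ1R, against 2.62 and 3.07 in JQ1S. The sum of their levels was 144 and 182 CPM in JQ1R, against 111 and 145 CPM in JQ1S. In both lines the library with more of both was replicate 2, the deeper of its pair in JQ1R and the shallower in JQ1S. Frmd8, the protein-coding gene 4224 bases from Neat1, stood at 41.6 and 37.1 CPM in JQ1R, against 41.2 and 38.9 CPM in JQ1S, with a log2 change of -0.03 ± 0.09. Frmd8 was lowest in JQ1R replicate 2 and highest in JQ1R replicate 1, and a link to Neat1 was not tested.

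**Figure D3:**
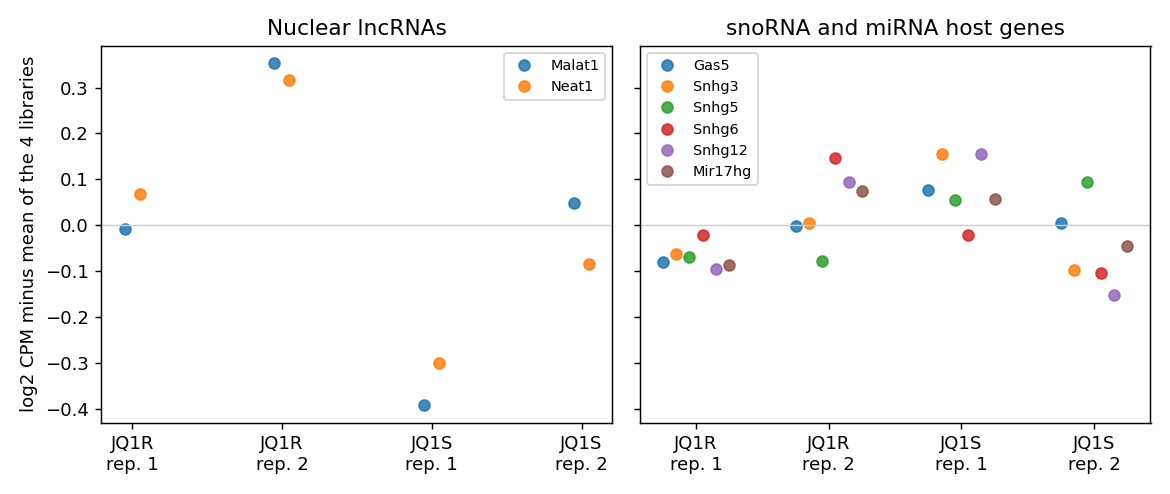
Log2 CPM of each member minus its mean over the 4 libraries, in each library of JQ1R and JQ1S. Malat1 and Neat1 (left) are both highest in JQ1R replicate 2 and lowest in JQ1S replicate 1, over a wider range than the snoRNA and microRNA host genes (right).

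By the distance between the 4 centred log2 values of each gene, the 3 genes closest to Neat1 among 8745 genes of at least 3 mean log2 CPM were Tsc22d3 (distance 0.06), a glucocorticoid-induced leucine zipper protein, P4ha1 (0.07), a collagen prolyl hydroxylase subunit, and Cdkn1b (0.08), the cell-cycle inhibitor p27. Cdkn1b stood at 88.9 and 98.6 CPM in JQ1R, against 67.7 and 76.5 CPM in JQ1S. Malat1, at a distance of 0.18, would rank 53 in that order. The likeness rests on 4 libraries, and the genes were picked for it, so it is given as a description without a test.

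Gas5, a host of 10 annotated snoRNA entries and the member with most reads, lies on chromosome 1 at 161034422 to 161038539. It stood at 394 and 416 CPM in the JQ1R libraries, against 439 and 418 CPM in the JQ1S libraries. The lines did not overlap on this scale, but without TMM scaling JQ1R replicate 2 (418 CPM) was above JQ1S replicate 2 (415 CPM). Means were 405 ± 15.5 CPM in JQ1R and 428 ± 15.03 CPM in JQ1S (SD, n = 2 per line). The log2 change of -0.08 ± 0.06 (SE) did not pass the test (adjusted p = 0.500, edgeR), and its 95% interval of -0.20 to 0.04 corresponds to 0.869-fold to 1.03-fold. Leaving out 1 library moved it between -0.12 (without JQ1R replicate 2) and -0.044 (without JQ1R replicate 1), and it was called in none of these fits.

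Snhg5, which hosts Snord50a and Snord50b, showed the tightest replicates of the members. It stood at 70.7 and 70.2 CPM in JQ1R, against 77.0 and 79.1 CPM in JQ1S. Both JQ1R libraries were lower than both JQ1S libraries, and the difference was larger than that between replicates. The log2 change was -0.15 ± 0.07 (SE), with an unadjusted p of 0.0410 and an adjusted p of 0.271 in edgeR, so it did not pass. Snhg5 lies on chromosome 9 at 88521050 to 88522929.

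Snhg6, which hosts Snord87, lies on chromosome 1 at 9941959 to 9944118. It stood at 42.9 and 48.2 CPM in JQ1R, against 42.9 and 40.5 CPM in JQ1S. The lines touched, with JQ1R replicate 1 and JQ1S replicate 1 at the same level to 3 digits. The log2 change was 0.13 ± 0.08 (SE), with an adjusted p of 0.475 in edgeR, and lay between 0.039 (without JQ1R replicate 2) and 0.21 (without JQ1R replicate 1) when 1 library was left out. Of its exonic bases 11.1% overlap Mcmdc2 on the other strand, which had 4.12 and 5.72 CPM in JQ1R, against 4.78 and 5.34 CPM in JQ1S. The strand setting of the counting is not given in the sources used here, so reads from the shared bases cannot be assigned.

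Snhg12 and Snhg3 lie 36989 bases apart on chromosome 4, at 132308623 to 132311024 (plus) and 132348014 to 132353686 (minus). Snhg12, host of H/ACA snoRNAs including Snora44 and Snora61, stood at 36.5 and 41.7 CPM in JQ1R, against 43.5 and 35.1 CPM in JQ1S. The JQ1R libraries fell between the JQ1S libraries. The log2 change was -0.01 ± 0.10 (SE), with a 95% interval of -0.23 to 0.20 (adjusted p = 0.967, edgeR). Snhg3, host of Snora73a and Snora73b and the least counted member, stood at 16.9 and 17.8 CPM in JQ1R, against 19.7 and 16.5 CPM in JQ1S. Here too the JQ1R libraries fell within the range of JQ1S. The log2 change was -0.07 ± 0.12 (SE), with a 95% interval of -0.32 to 0.17 (adjusted p = 0.811, edgeR). Snhg3 is uncertain as a gene count, since 71.5% of its exonic bases overlap Gm17300 on the other strand and 13.7% overlap Rcc1, a chromatin-bound exchange factor, on its own strand. Gm17300 stood at 23.2 and 25.1 CPM in JQ1R, against 27.1 and 24.0 CPM in JQ1S, and Rcc1 at 221 and 221 CPM in JQ1R, against 257 and 220 CPM in JQ1S.

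Mir17hg stood at 64.4 and 72.1 CPM in JQ1R, against 71.2 and 66.4 CPM in JQ1S. Both JQ1S libraries fell between the JQ1R libraries. Means were 68.3 ± 5.44 CPM in JQ1R and 68.8 ± 3.42 CPM in JQ1S (SD, n = 2 per line). The log2 change was -0.01 ± 0.08 (SE), with a 95% interval of -0.17 to 0.15, or 0.888-fold to 1.11-fold (adjusted p = 0.960, edgeR). None of the 6 microRNA genes inside Mir17hg has a row of its own in the counts analysed.

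**Figure D4:**
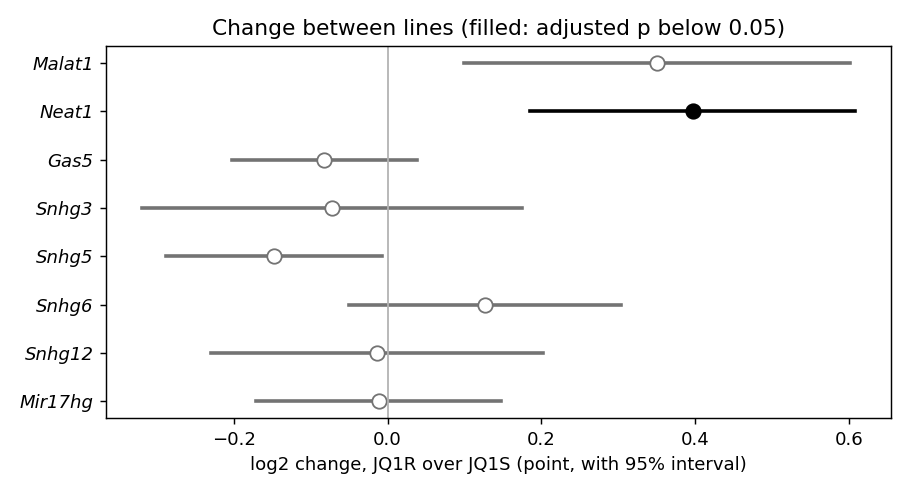
Log2 change of each member, JQ1R over JQ1S, with its 95% interval from the edgeR fit. The filled point, Neat1, has an adjusted p below 0.05, and the open points do not. The intervals of Malat1 and Snhg5 leave out 0 but did not pass after adjustment over 11945 genes.

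Separate ranges for JQ1R and JQ1S were seen in 4 of 8 members, Neat1, Gas5, Snhg5 and Snhg6, beside 47.3% of all tested genes. For Snhg6 the gap was below the third digit, and for Gas5 it was absent without TMM scaling. Summed over the 5 snoRNA hosts, the level was 561 and 593 CPM in JQ1R, against 622 and 589 CPM in JQ1S, so the lines overlapped. All 8 members together took 0.0769% and 0.0852% of counts in JQ1R, against 0.0800% and 0.0795% in JQ1S. Gas5 alone made up 51.2% and 49.0% of the members' counts in JQ1R, against 54.6% and 52.2% in JQ1S. Of 583 tested genes with long noncoding biotypes 8 rose and 8 fell (2.74%), Neat1 among those that rose.

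Levels per kilobase of merged exons put the members in nearly the same order in both lines. Gas5 was first, at 105 and 111 CPM per kilobase in JQ1R, against 117 and 111 in JQ1S, and ranked 11 of 583 long noncoding genes on this scale. Snhg5 followed at 40.7 ± 0.19 CPM per kilobase in JQ1R and 45.1 ± 0.86 in JQ1S (SD, n = 2 per line), and Snhg6 at 39.8 ± 3.27 in JQ1R and 36.4 ± 1.48 in JQ1S. These neighbours overlapped in JQ1R, where Snhg6 ran from 37.5 to 42.1, and did not in JQ1S. Mir17hg (19.3 CPM per kilobase in JQ1R and 19.5 in JQ1S), Snhg3 (17.6 and 18.4), Malat1 (17.2 and 13.6) and Snhg12 (16.3 and 16.4) came next, and each overlapped its neighbour in this order in 1 line or both. Neat1 was last, at 2.08 ± 0.25 CPM per kilobase in JQ1R and 1.59 ± 0.17 in JQ1S. Merged exons include retained introns, all 10 snoRNA entries of Gas5 among them, and the full length of Neat1. With the median annotated transcript as length, Gas5 was still first, but Malat1 came second, at 198 CPM per kilobase in JQ1R and 156 in JQ1S. That length is 606 bases for Malat1, against 6983 bases of merged exons, so its rank depends on the length used. Mir17hg was last in JQ1R and Neat1 in JQ1S.

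The snoRNAs themselves were hardly sampled. Of 29 snoRNA entries annotated inside the members, those of Snhg1 and Snhg8 included, 3 have a row. Snora24, inside an exon of Snhg8, had 31 and 47 counts in JQ1R, against 50 and 36 in JQ1S. Snora16a, inside Snhg12, had 7 and 20 counts in JQ1R, against 22 and 13 in JQ1S. Snord87, in an intron of Snhg6, had 5 and 5 counts in JQ1R, against 16 and 4 in JQ1S, and did not pass the filter. The lines overlapped for Snora24 and Snora16a, and neither passed the test (adjusted p = 0.864 and 0.739, edgeR). Both lie wholly within annotated exons of their hosts, so snoRNA and host reads cannot be told apart there.

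No gene beside the snoRNA hosts was called with all libraries. Zbtb37, whose start lies 427 bases from that of Gas5 on the other strand, had a log2 change of -0.19 ± 0.11. Slc3a2, a subunit of amino acid transporters whose start is 106 bases from that of Snhg1, had -0.03 ± 0.06, and Wdr74, also near Snhg1, had -0.07 ± 0.07. Trnau1ap, between Snhg12 and Snhg3, stood at 19.95 and 19.5 CPM in JQ1R, against 16.9 and 14.4 CPM in JQ1S (0.33 ± 0.11, adjusted p = 0.144, edgeR). Trnau1ap was called without JQ1S replicate 1 (0.46, adjusted p = 0.0129) and not without JQ1S replicate 2 (0.22, adjusted p = 0.280). Phactr4, beside Snhg3, had -0.10 ± 0.08, Rcc1 had -0.12 ± 0.07 and Mcmdc2 -0.02 ± 0.20. Rcc1 was called without JQ1S replicate 2 (-0.22, adjusted p = 0.000461), whereas without JQ1S replicate 1 its change was 0.0038 (adjusted p = 0.981).

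Other host genes and lncRNAs were followed for comparison. Of 8 tested noncoding hosts outside the 10 members, none was called by edgeR, by DESeq2 or by limma-voom. An unadjusted edgeR p below 0.05 was found for 2 of them, and their median log2 change was 0.03, where the median of all tested genes was 0.0033. Mir142hg, host of the blood-cell microRNA miR-142, stood at 14.4 and 18.2 CPM in JQ1R, against 13.7 and 12.4 CPM in JQ1S (log2 change 0.31, adjusted p = 0.239, edgeR). Dleu2, host of miR-15a and miR-16-1, had 0.21, and Snhg14 had -0.15. Without JQ1R replicate 2 Mir142hg was at 0.13 and Dleu2 at 0.050, and without JQ1R replicate 1 they were at 0.47 and 0.35, with no call in any fit that left out 1 library. Among 9 other well-studied lncRNAs the 3 tests (edgeR, DESeq2, limma-voom) called 0, and 2 had an unadjusted edgeR p below 0.05. With no filter on low counts, 14 of the listed lncRNAs were tested and 1 was called, lower in JQ1R. It was not Airn, Ftx or Rpph1. Leaving out a library also changed which were tested (11 without JQ1R replicate 1) and which were called. Airn had a log2 change of -0.68 (adjusted p = 0.190), Ftx, in the X-inactivation centre, 0.16 (adjusted p = 0.289) and Rpph1, the RNA of RNase P, -0.97 (adjusted p = 0.305). The value of Rpph1 rests on JQ1S replicate 2, at 3.40 CPM against 1.16 CPM in JQ1S replicate 1: without JQ1S replicate 2 it was -0.077, and without JQ1S replicate 1 it was -1.62 and called (adjusted p = 0.00222). Airn lay between -1.12 (without JQ1R replicate 2) and -0.36 (without JQ1R replicate 1).

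Protein-coding hosts of snoRNAs had 2 of 27 members higher and 0 lower, beside 3.73% of all tested genes in either direction, with a median log2 change of 0.02. Rpl5, a ribosomal protein, stood at 856 and 837 CPM in JQ1R, against 749 and 720 CPM in JQ1S (0.21, adjusted p = 0.0390, edgeR), and Rack1, a scaffold on the small ribosomal subunit, at 2383 and 2350 CPM in JQ1R, against 2128 and 2017 CPM in JQ1S (0.19, adjusted p = 0.0439). DESeq2 called neither, and both lost their call when either JQ1R library was left out. The balance of directions depended on the library left out: without JQ1S replicate 1, 6 were higher and 1 lower (11.3% of all genes called), and without JQ1S replicate 2, 3 were higher and 5 lower (9.68% of all genes called). Hspa8, a chaperone and snoRNA host, had -0.19 (adjusted p = 0.0670, edgeR), and was called lower without JQ1S replicate 1 (adjusted p = 0.00777) and without JQ1S replicate 2 (adjusted p = 0.000136). Of 19 genes of snoRNP proteins and their assembly 1 fell and 0 rose, with a median of -0.07. That was Nolc1, a nucleolar chaperone of snoRNPs, at 685 and 663 CPM in JQ1R, against 775 and 784 CPM in JQ1S (-0.21, adjusted p = 0.0332, edgeR), which lost its call without either JQ1R library. With the replicate number as a block, 0 of the 19 were called. Gar1 and Naf1, of H/ACA snoRNPs, had -0.17 and -0.19 with adjusted p-values of 0.156 and 0.159, and Naf1 was called without JQ1S replicate 2 (adjusted p = 0.0187).

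The genes of proteins that assemble with the nuclear RNAs gave no call with all libraries and no block. The same 3 tests called 0 of 18 paraspeckle genes, of which 4 had an unadjusted edgeR p below 0.05, and the median log2 change was -0.05. Rbm14 stood at 113 and 115 CPM in JQ1R, against 125 and 146 CPM in JQ1S (-0.24, adjusted p = 0.0799, edgeR). The core components Sfpq and Pspc1 had -0.17 (adjusted p = 0.115) and -0.20 (adjusted p = 0.151). Rbm14, Sfpq and Pspc1, named because their p was smallest among the 18, had negative log2 changes, while that of Neat1 was positive. Without JQ1S replicate 1, when the spread rests on the JQ1R pair alone, 6 of the 18 were called, Rbm14, Sfpq and Pspc1 among those lower, where 11.3% of all genes were called. Without JQ1S replicate 2, which also leaves the spread to the JQ1R pair, 0 of the 18 were called, where 9.68% of all genes were. With the replicate number as a block Rbm14 alone was called (-0.24, adjusted p = 0.0325). For 19 speckle genes the 3 tests also gave 0 calls, with an unadjusted edgeR p below 0.05 for 3 and a median of -0.04. Clk4 and Clk1, kinases of splicing factors, had 0.19 and 0.15, and Rnps1 had -0.14. Rnps1 was called without JQ1S replicate 1 (adjusted p = 0.0173) and Clk1 without JQ1S replicate 2 (adjusted p = 0.0359). Without JQ1S replicate 1, 5 of the 19 were called, and without JQ1S replicate 2, 2 were.

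Among factors of nonsense-mediated decay and the exon junction complex, Upf1, the central helicase of the pathway, stood at 253 and 246 CPM in JQ1R, against 265 and 293 CPM in JQ1S (log2 change -0.16, adjusted p = 0.181, edgeR). Both JQ1R libraries were lower than both JQ1S libraries, but the change did not pass the test. Upf1 was called without JQ1S replicate 1 (-0.23, adjusted p = 0.000185) and not without JQ1S replicate 2 (-0.089, adjusted p = 0.292). Pnrc2 stood at 67.1 and 74.9 CPM in JQ1R, against 58.0 and 63.6 CPM in JQ1S (0.23, adjusted p = 0.126, edgeR), also without overlap, and was called without JQ1S replicate 2 (0.29, adjusted p = 0.00165) and not without JQ1S replicate 1 (0.16, adjusted p = 0.161).

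In microRNA processing 0 of 12 genes were called by edgeR, DESeq2 or limma-voom, with a median of -0.05. Xpo5, the exporter of microRNA precursors (-0.16, adjusted p = 0.165), was the 1 gene with an unadjusted edgeR p below 0.05, beside 16.9% of all tested genes. Dgcr8, the partner of the nuclear processor Drosha, had -0.13, and Tnrc6a, a silencing partner of Argonaute, had -0.11. Without JQ1S replicate 2 the log2 change of Xpo5 was -0.19. Known targets of the cluster made from Mir17hg did not share a direction among those named. Bcl2l11, which encodes the pro-apoptotic protein BIM, stood at 48.1 and 47.6 CPM in JQ1R, against 40.8 and 41.5 CPM in JQ1S (0.22, adjusted p = 0.141, edgeR). E2f1, a transcription factor of S-phase entry, stood at 67.5 and 70.5 CPM in JQ1R, against 57.3 and 63.7 CPM in JQ1S (0.19, adjusted p = 0.184). Phlpp2, a phosphatase of AKT, stood at 30.7 and 25.3 CPM in JQ1R, against 31.8 and 33.0 CPM in JQ1S (-0.21, adjusted p = 0.296), and lay between -0.35 (without JQ1R replicate 1) and -0.078 (without JQ1R replicate 2). None of these 3 passed the test with all libraries, E2f1 did without JQ1S replicate 2 (0.27, adjusted p = 0.00594) and not without JQ1S replicate 1 (0.12, adjusted p = 0.368), and the host itself was at 0.992-fold.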

How the data were processed

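RNA sequencing counts of 4 libraries were used. The authors' deposited table gives unnormalised counts by Ensembl gene identifier for 16591 genes, each with at least 4 counts in all. Builds GRCm38 and mm10, and the tools TopHat, Bowtie2, HTSeq, limma, FastQC and cutadapt 1.7, are credited to the submitters' processing notes. How each was used, and whether counting was by strand, is not given in the sources used here. The library kit was TruSeq RNA, per the labels' protocols. Reads shared by overlapping genes may have been dropped or split.

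Symbols, positions and exon lengths came from GENCODE M21 (GRCm38), which matched 16407 identifiers. The genes were chosen with earlier results of these data known, as were the comparison lists, and of each list up to 3 genes with the smallest p are named, with genes within 20 kb of a member. Some genes that this rule names are not reported here. Without them the lists of decay factors and of microRNA targets are incomplete, so no count or median is given for either. Counts were fitted in R 4.3.3 with edgeR 4.0.16 (TMM, filterByExpr with a minimum count of 10 and total of 15, quasi-likelihood test, group alone), which left 11945 genes. P-values were adjusted by Benjamini-Hochberg and called below 0.05. SEs of edgeR derive from the F statistic, with 15.8 degrees of freedom for each member, those borrowed from other genes included. Alternatives used DESeq2 1.42.0, limma 3.58.1 (voom), other scalings and filters, a replicate block and each library left out, and the fit was tested on simulated data. A count of 1 is 0.0766 to 0.0967 CPM. With 2 libraries against 2, an exact permutation test cannot go below p = 0.333.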

Additional observations from a re-analysis of the deposited data

How the results depend on the processing

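Over 13 alternatives, the log2 change of Neat1 ran from 0.39 to 0.41 with all libraries and from 0.26 to 0.51 with a library left out, and it was called under 11 of them. That of Malat1 ran from 0.34 to 0.36 and from 0.14 to 0.58, and it was called under 3. Gas5, Snhg3, Snhg5, Snhg6, Snhg12 and Mir17hg were called under none. The number of members called was 0 with DESeq2, 2 with the replicate block and 0 to 2 with a library left out. The number of genes called was 208 with DESeq2 and 270 to 1381 with a library left out, the highest without JQ1S replicate 1 (1381) and without JQ1S replicate 2 (1187), where the spread rests on the JQ1R pair alone and the single JQ1S library is assumed to vary like it, and 270 without JQ1R replicate 2. The cause was not tested.

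The sign turned for Mir17hg with library size only (0.00065). With a library left out it also turned for Mir17hg (range -0.10 to 0.066), Snhg12 (-0.15 to 0.16) and Snhg3 (-0.19 to 0.072), and, among the other genes named, for Frmd8 (-0.11 to 0.051), Mcmdc2 (-0.29 to 0.18), Wdr74 (-0.15 to 0.013) and Rcc1 (-0.22 to 0.0038). Leaving out JQ1S replicate 1 turned Mir17hg, Snhg12, Snhg3, Frmd8, Wdr74 and Rcc1, leaving out JQ1R replicate 1 Mir17hg, Snhg12 and Mcmdc2, leaving out JQ1R replicate 2 Frmd8, and leaving out JQ1S replicate 2 Mcmdc2. The settings of these other genes, the list counts and the second length were added after the data had been seen.

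With the replicate block, 595 genes were called. Malat1 was called (adjusted p = 0.00047), as were Neat1 (0.00206) and Rbm14 (0.0325), whereas Nolc1, Rpl5 and Rack1 were not. Over all tested genes, libraries with the same number did not deviate together (correlation -0.02), so the numbers are not taken as pairs. For Malat1, however, replicate 2 was above replicate 1 in JQ1R (135 against 105 CPM) and in JQ1S (109 against 80.2 CPM). The same held for Neat1 in JQ1R (47.0 against 39.5 CPM) and in JQ1S (35.6 against 30.6 CPM). What the replicate number stands for was not tested.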
